A study of Mus musculus with 6 samples.

Results

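This account follows the miR-199 and miR-214 family on miRNA arrays of mouse 3T3-L1 cells, an established line of embryonic fibroblasts that turns into fat cells under hormones. Members were taken by name alone: every mouse miRNA of the array that is named miR-199 or miR-214, with any letter and arm. This gave 5 of 1247 mouse miRNAs, namely mmu-miR-199a-5p, mmu-miR-199a-3p, mmu-miR-199b-5p, mmu-miR-214-3p and mmu-miR-214-5p (mmu, for mouse, is left out from here on where it is plain), and all 5 were among the 299 miRNAs that were tested. Both groups were differentiated for 8 days with isobutyl-methylxanthine, dexamethasone, insulin and rosiglitazone, followed by insulin and then serum alone. The 4 control arrays came from cells without added cytokine. The 2 interleukin-6 (IL-6) arrays came from cells given 1 ng/ml recombinant IL-6 from induction onward, with daily renewal. The comparison asks whether chronic IL-6, an inflammatory cytokine that muscle also releases in exercise, changes miRNA levels in these adipocytes. All cells are of 1 line and 1 day of differentiation, no array of undifferentiated cells was analysed here, and the labels do not state whether the RNA of each array was from its own culture. The p-values hence rest on a spread between samples that could be purely technical.

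A miRNA is cut from a hairpin as a duplex, and either strand, called the 5p or 3p arm, can enter Argonaute and repress messenger RNAs that pair with its seed, bases 2 to 8. The genes of miR-199a-2 and miR-214 lie on 1 long noncoding transcript, Dnm3os, which the mesenchymal factor Twist1 drives, and both miRNAs are typical of fibroblasts and other mesenchymal cells. miR-214-3p is known to repress Ezh2, a Polycomb methyltransferase, and miR-199a-3p to repress Mtor and the receptor Met. miR-199a-5p represses caveolin-1 in fibroblasts. IL-6 signals mainly through the transcription factor STAT3.

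The hairpins are shown first because they fix which members share a precursor. Both stand on the plus strand of chromosome 1 inside Dnm3os (chr1:162217623-162225550, GRCm38.p6) and opposite in strand to Dnm3, a dynamin gene that spans them. Capitals mark the 5p arm and then the 3p arm. Mir199a-2 lies at chr1:162217814-162217923 and Mir214 at chr1:162223368-162223477, with 5444 bases between them.
Mir199a-2: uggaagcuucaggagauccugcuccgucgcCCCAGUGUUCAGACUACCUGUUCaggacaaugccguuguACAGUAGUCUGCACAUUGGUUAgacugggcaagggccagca
Mir214: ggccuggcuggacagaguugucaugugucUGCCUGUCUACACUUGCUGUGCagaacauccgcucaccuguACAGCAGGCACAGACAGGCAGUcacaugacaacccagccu

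A second miR-199a hairpin, Mir199a-1, lies at chr9:21496495-21496564 on the minus strand within the bounds of Dnm2, and Mir199b lies at chr2:32318460-32318569 on the plus strand within Dnm1. Each is opposite in strand to the dynamin gene around it. The reference tables give gene bounds and no exons, so introns are not named here. The mature miR-199a-3p and miR-199b-3p are identical, and the array reads them with the same probes. By sequence, the miR-199a-3p signal can therefore come from 3 hairpins on 3 chromosomes, the miR-199a-5p signal from 2, and the miR-214 signals from 1. Which of these hairpins the cells expressed was not tested.

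RefSeq's mature table (GRCm38.p6) matched 4 of the 5 members, printed here with the seed in capitals because the seed sets the targets.
miR-199a-5p: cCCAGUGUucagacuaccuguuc
miR-199a-3p: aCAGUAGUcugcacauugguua
miR-214-3p: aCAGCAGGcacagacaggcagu
miR-214-5p: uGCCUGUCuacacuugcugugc
The seeds of miR-199a-3p and miR-214-3p were identical at 5 of 7 positions and differed by U5C and U8G, with miR-199a-3p first and bases counted from the 5′ end. No other pair of these members shared more than 3 seed positions. One further miRNA of the array carries the full miR-214-3p seed, miR-761.
miR-761: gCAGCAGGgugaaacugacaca
miR-761 was not above background, with scaled intensities between -1.58 and -0.234 over the 6 arrays. Among array miRNAs with this seed, only miR-214-3p itself was measured above background. The 4 printed members carried 4 different seeds, so that the arms of 1 precursor differed in seed.

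The probes matter for what each signal can mean. They pair with the 3′ end of the mature miRNA, so that the probes of miR-214-3p, at 12 and 13 bases, covered none of its seed. The probes of miR-199a-5p and miR-199b-5p are shown because they are nearly the same, and capitals mark where they differ.
miR-199a-5p probe: gaacaggtagtctGaacac
miR-199b-5p probe: gaacaggtagtctAaacactg
They differed at 1 of 19 compared positions (G14A, with the miR-199a-5p probe first and positions counted from its 5′ end). Whether each miRNA also binds the other's probe was not tested. The 4 probes of miR-214-5p are shown because only the longest gave a signal, and capitals mark the bases beyond the shortest.
miR-214-5p probe, 14 bases: gcacagcaagtgta
miR-214-5p probe, 15 bases: gcacagcaagtgtaG
miR-214-5p probe, 16 bases: gcacagcaagtgtaGA
miR-214-5p probe, 17 bases: gcacagcaagtgtaGAC

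The arrays of both groups lay on 1 slide and came from 1 scan, with controls in slide row 1 and IL-6 in row 2, so row and group cannot be told apart. Slide columns 3 and 4 held a control and an IL-6 array each. Between 268 and 294 miRNAs were detected on controls and 300 and 313 with IL-6, and no spot was saturated. The 75th percentile used for scaling ran from 248 to 396 intensity units on controls and was 440 and 369 on IL-6 arrays. Of 25 miRNAs that mark epithelial, muscle, blood, liver, endothelial or neural cells, 2 were tested, the epithelial miR-205-5p (difference 0.093, limma adjusted p = 0.55) and the neural miR-128-3p (0.10, limma adjusted p = 0.574). The summed signal of the 6 muscle miRNAs was 2.07 to 3.63 on controls and 1.22 to 2.64 with IL-6. That of the 6 blood miRNAs was 3.87 to 5.84 and 2.22 to 3.23, and none of these 12 was tested. The 7 epithelial miRNAs summed to 72.2 to 80.6 and 75.9 to 83.7, and the 6 of liver, endothelium and nerve to 20.5 to 24.6 and 23.3 to 24.4. Whether these levels bear on the family's was not tested. The number of arrays limits the precision of all that follows.

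With IL-6 present throughout differentiation, no member of the family passed the test in either direction. The differences ran from -0.045 to 0.080 on the log2 scale, folds between 0.969 and 1.06, and the IL-6 arrays overlapped the controls for every member. By limma over all 299 tested miRNAs, 0 of 5 members had an adjusted p under 0.05, beside 0.334% of all tested miRNAs. At an unadjusted p under 0.05 it was 0 of 5, beside 22.7%, and groups that did not overlap were found for 0 of 5, beside 34.8%. With so few members, these counts are a description and do not set the family apart from other miRNAs.

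mmu-miR-199a-3p, the Mtor and Met repressor, measured 11.63, 11.64, 11.68 and 11.35 (log2 of scaled intensity) on controls 1 to 4. It measured 11.65 and 11.40 on IL-6 arrays 1 and 2. Both arrays of slide column 4, control 4 and IL-6 array 2, were low, and the other 4 lay close together. Controls averaged 11.57 ± 0.15 (SD, n = 4) and IL-6 arrays 11.53 ± 0.18 (SD, n = 2). The difference was -0.045 ± 0.12 (limma SE; 95% interval -0.35 to 0.26; adjusted p = 0.871).

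mmu-miR-199a-5p, from the other strand of the miR-199a hairpins, measured 10.36, 10.28, 10.42 and 10.17 on controls 1 to 4 and 10.32 and 10.29 with IL-6. Both IL-6 arrays lay inside the control range. Controls averaged 10.31 ± 0.11 (SD, n = 4) and IL-6 arrays 10.30 ± 0.025 (SD, n = 2), and they differed by -0.0044 ± 0.082 (limma SE; 95% interval -0.21 to 0.20; adjusted p = 0.992). Of the arrays of slide column 4, control 4 was low and IL-6 array 2 was not.

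mmu-miR-199b-5p comes from the hairpin within Dnm1. It measured 10.57, 10.54, 10.61 and 10.37 on controls 1 to 4 and 10.63 and 10.57 with IL-6. IL-6 array 1 was the highest of the 6, and IL-6 array 2 lay among the controls. Controls averaged 10.52 ± 0.10 (SD, n = 4) and IL-6 arrays 10.60 ± 0.037 (SD, n = 2), and the difference of 0.080 ± 0.080 (limma SE; 95% interval -0.12 to 0.28) was the largest of the family in size, with a limma adjusted p of 0.617.

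mmu-miR-214-3p, the Ezh2 repressor, measured 8.89, 8.82, 8.92 and 8.67 on controls 1 to 4 and 8.82 and 8.94 with IL-6. Here IL-6 array 2 was the highest of the 6 and IL-6 array 1 sat among the controls. Controls averaged 8.83 ± 0.11 (SD, n = 4) and IL-6 arrays 8.88 ± 0.083 (SD, n = 2), and they differed by 0.051 ± 0.088 (limma SE; 95% interval -0.16 to 0.27; adjusted p = 0.781).

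mmu-miR-214-5p, the other strand of that hairpin, was dim and measured 3.73, 3.72, 3.67 and 3.53 on controls 1 to 4 and 3.67 and 3.62 with IL-6. Both IL-6 arrays lay inside the control range. Controls averaged 3.67 ± 0.092 (SD, n = 4) and IL-6 arrays 3.64 ± 0.035 (SD, n = 2), and they differed by -0.023 ± 0.075 (limma SE; 95% interval -0.21 to 0.16; adjusted p = 0.901). This value averages 4 probes, of which only that of 17 bases was well above background.

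**Figure D1:**
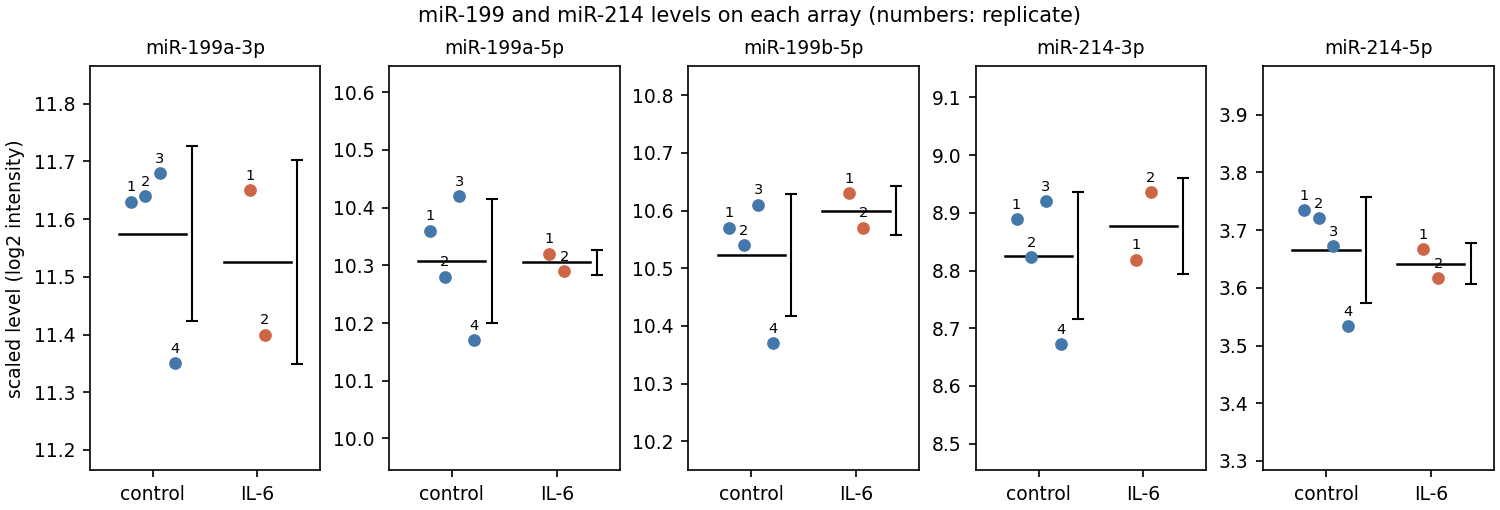
Scaled level (log2 intensity) of each member on the 4 control and 2 IL-6 arrays, with replicate numbers at the points; black lines are group means and the bars beside them 1 SD. Each panel spans 0.7 log2 units around its own centre, control 4 is the lowest array in all 5 panels, and the groups overlap in each.

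Control 4 was the lowest of the 6 arrays for all 5 members. It was the lowest of the 4 controls for all 5 as well, beside 38.5% of all tested miRNAs. Control 3 was the highest control for 4 of the 5, for which no share of all tested miRNAs is given here. Over the controls the SD of the members ran from 0.092 to 0.15 (log2), against a median of 0.13 over all tested miRNAs, and only miR-199a-3p lay above that median. The intervals bound what these arrays allow under this scaling. For miR-199a-3p they ran from a fold of 0.786 to 1.19, and for miR-214-5p from 0.866 to 1.12. For miR-199b-5p they ran from 0.922 to 1.21.

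Within slide columns the small differences took different signs. In column 3, IL-6 minus control was -0.024 for miR-199a-3p, -0.097 for miR-199a-5p, 0.020 for miR-199b-5p, -0.10 for miR-214-3p and -0.0052 for miR-214-5p. In column 4, where the control was the low array named above, all 5 were above 0, at 0.055, 0.12, 0.20, 0.26 and 0.084 in the same order. Each of these values sets 1 array against 1 and carries no error between samples. The part of slide position in the differences was not tested.

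The probes of a member gave like differences. The pair for miR-199a-3p differed by -0.053 (19 bases) and -0.040 (20 bases). The pair for miR-199b-5p gave 0.097 (21 bases) and 0.071 (22 bases), and that for miR-214-3p gave 0.037 (12 bases) and 0.058 (13 bases). Only miR-199a-5p had probes of opposite sign, -0.054 (18 bases) and 0.012 (19 bases). Each of these 8 probes had 15 to 20 usable spots per array, with a coefficient of variation over spots between 2.18% and 7.97%. As a standard error of the spot mean this came to 0.0081 to 0.026 on the log2 scale, below the SD between control arrays of each of these 4 members. For the dim 17-base probe of miR-214-5p the coefficient of variation reached 14.7%, a standard error of 0.067, close to the SD of 0.079 between control arrays for that probe.

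For miR-214-5p, all 10 spots of the 17-base probe were well above background on each array. Before scaling they averaged 45.0, 51.6, 31.6 and 39.8 intensity units on controls 1 to 4 and 55.4 and 44.8 with IL-6. On the 16-base probe, which lacks only the last base, the averages were 3.86 to 5.93, and on the 15-base probe -0.088 to 2.46. On the 14-base probe they were -1.93 to 0.0445. No array detected any of these 3. The 17-base probe alone gave a difference of -0.025, beside -0.023 for the average over 4 probes. Whether this arm counted as detected thus turned on 1 of the 4 probes, which also supplied nearly all of its signal.

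**Figure D2:**
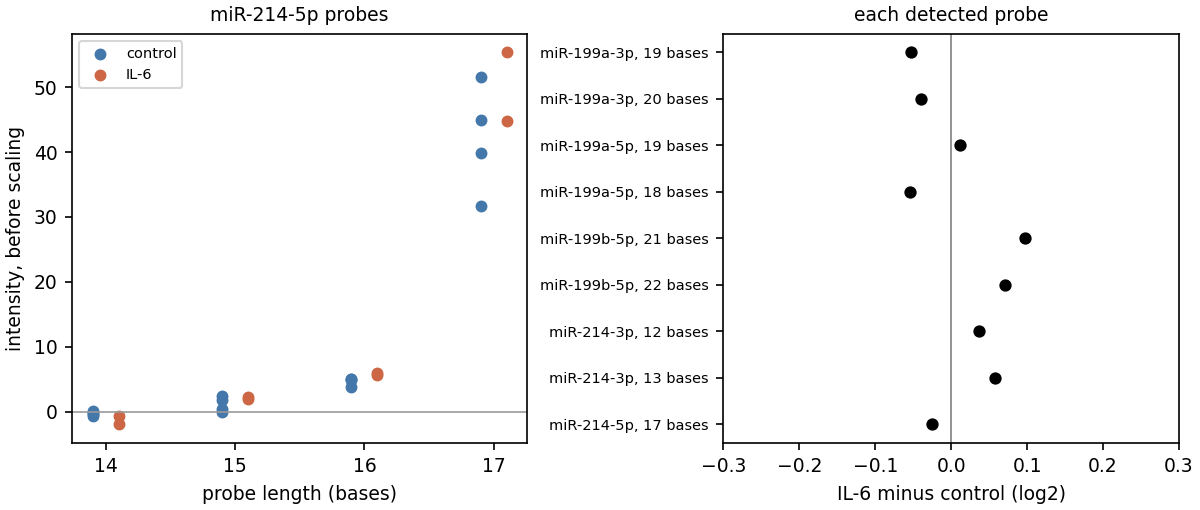
Left, mean intensity before scaling of the 4 miR-214-5p probes by probe length in bases, 1 point per array; only the 17-base probe, between 31.6 and 55.4, was well above background. Right, IL-6 minus control (log2 of scaled intensity) for each of the 9 detected probes of the family, as values with no test; all lie between -0.054 and 0.097.

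Members that share a hairpin or transcript can be compared within an array, where a scaling factor common to the array drops out. The log2 ratio between probes of different miRNAs is no ratio of molecules, so only its change between arrays is read. For the arms of miR-199a (5p minus 3p) the ratio was -1.26, -1.36, -1.26 and -1.18 on controls 1 to 4 and -1.33 and -1.11 with IL-6. The 3p probes also read miR-199b-3p of Mir199b, so this ratio is not limited to the arms of shared hairpins. The IL-6 arrays lay on either side of the control mean, and the difference was 0.041 (exact two-sided permutation p = 0.733). For the arms of miR-214 (3p minus 5p) it was 5.15, 5.10, 5.25 and 5.14 on controls and 5.15 and 5.32 with IL-6, a difference of 0.075 (exact permutation p = 0.4).

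The miR-199a signals were set against miR-214-3p in the same way. They can also hold signal of hairpins outside Dnm3os, as described above. These ratios can therefore not be read as comparing the 2 hairpins of Dnm3os alone. miR-199a-5p minus miR-214-3p was the steadiest ratio on controls, at 1.475, 1.462, 1.499 and 1.496, with an SD of 0.018 (n = 4). It was 1.503 on IL-6 array 1 and 1.351 on IL-6 array 2, a difference of -0.056 (exact permutation p = 0.333). miR-199a-3p minus miR-214-3p was 2.74, 2.82, 2.76 and 2.68 on controls and 2.84 and 2.47 with IL-6, a difference of -0.096 (exact permutation p = 0.6). For both ratios IL-6 array 1 was thus above and IL-6 array 2 below all 4 controls, and IL-6 array 2 alone carried the negative mean. For miR-199a-5p minus miR-214-3p, IL-6 array 1 was above by little, at 1.503 against 1.499 on control 3. Over these 4 ratios the Benjamini-Hochberg adjusted p was 0.733 for each. The smallest p that 15 ways of choosing 2 of 6 arrays allow is 0.0667, so no ratio could have passed 0.05. Quantile scaling, which changes bright and dim miRNAs by different amounts and so does not drop out, moved the ratios. It gave 0.37 for the arms of miR-199a and -0.49 for miR-199a-3p minus miR-214-3p, each at the smallest possible exact permutation p of 0.0667. It gave 0.12 for the arms of miR-214 (exact permutation p = 0.267) and -0.12 for miR-199a-5p minus miR-214-3p (exact permutation p = 0.133). The member that moved most was miR-199a-3p, the brightest of the family, at -0.39 under this scaling (limma adjusted p = 0.215) beside -0.045. Smaller moves were those of miR-214-3p, at 0.10 beside 0.051, and miR-199b-5p, at 0.022 beside 0.080. Within slide column 3 the 4 ratios, with the arms of miR-199a first, then those of miR-214, miR-199a-5p and miR-199a-3p each minus miR-214-3p, differed by -0.073, -0.096, 0.0044 and 0.078, and within column 4 by 0.065, 0.18, -0.14 and -0.21.

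**Figure D3:**
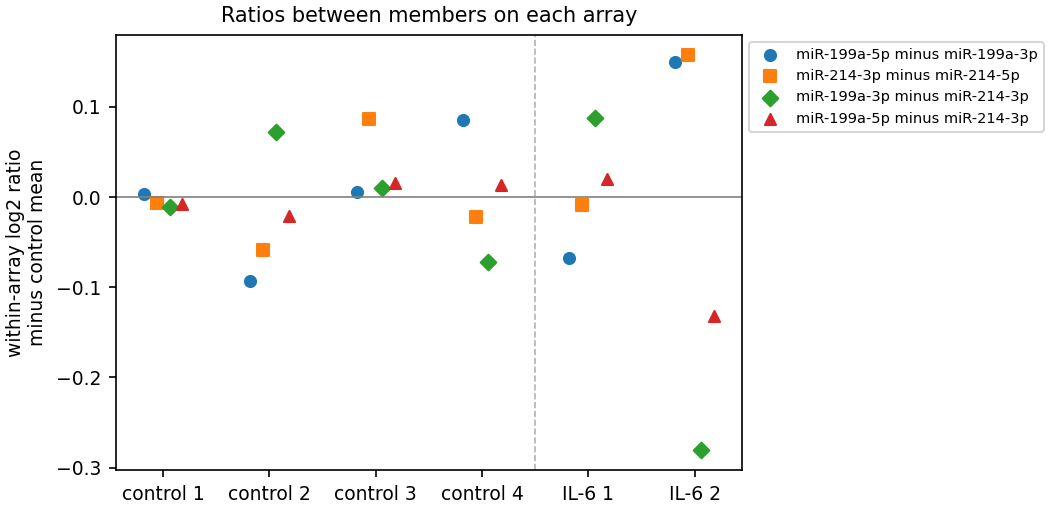
Within-array log2 ratios between members, minus the mean of the 4 controls, on each array; each marker is 1 ratio on 1 array. On IL-6 array 2 the ratio of miR-199a-3p to miR-214-3p is at -0.28, below all 4 controls, while on IL-6 array 1 it is at 0.088, above them.

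No scaling made a member pass, but the sign of these small differences changed with the scaling for each member under at least 1 choice, and for some members with other choices too. Without scaling, the intensity of miR-199a-3p was 3067, 3541, 2277 and 2505 on controls and 3971 and 2798 with IL-6. That of miR-214-3p was 460.0, 502, 337 and 392 on controls and 556 and 506 with IL-6. Unscaled differences were 0.25 for miR-199a-3p, 0.29 for miR-199a-5p, 0.37 for miR-199b-5p, 0.35 for miR-214-3p and 0.27 for miR-214-5p, and the median of all tested miRNAs lay 0.28 above its scaled value. Scaled by the spike-in RNAs they were 0.26, 0.30, 0.38, 0.35 and 0.28, with a shift of that median by 0.29. A single factor per array shifts every miRNA alike, so these values tell nothing of the family beyond the scaled ones. Of the 24 alternatives for each member, those within a single slide column gave no p-value. Over the others, the limma adjusted p ran from 0.189 to 1 and was under 0.05 for 0 of 5. The limma test gave an unadjusted p under 0.05 once, for miR-199b-5p with the scanner's total signal per miRNA (0.18, limma adjusted p = 0.189).

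**Figure D4:**
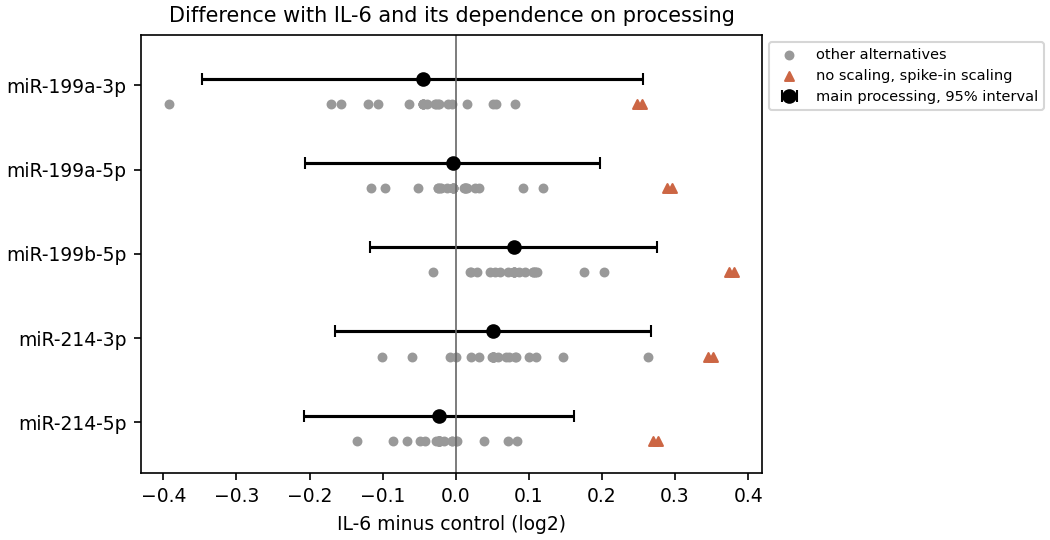
IL-6 minus control (log2) for each member: black points are the main processing with limma's 95% interval, grey points the other alternatives and triangles the values with no scaling or spike-in scaling. The black intervals all include 0, and the triangles lie between 0.25 and 0.38.

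The miRNAs whose levels followed each member most closely over the 6 arrays are given by Pearson's r, as a description; each is the top of 294 miRNAs outside the family, and all share arrays, scaling and slide columns. For miR-199a-3p these were miR-146b-5p (r = 0.98), miR-322-5p (0.96) and miR-10b-5p (0.959). Without the 2 arrays farthest from the median, control 4 and IL-6 array 2, the r with miR-10b-5p was -0.318 and that with miR-146b-5p 0.24, so both rested on the arrays of slide column 4. For miR-199a-5p they were miR-669f-3p (0.911), miR-195a-5p (0.882) and miR-467a-3p (0.875). For miR-199b-5p they were miR-423-5p (0.937), miR-185-5p (0.922) and miR-374c-5p (0.893), and for miR-214-3p miR-532-3p (0.901), miR-3473e (0.872) and miR-532-5p (0.842). For miR-214-5p they were miR-125a-5p (0.977), miR-30b-5p (0.971) and miR-674-3p (0.97), and the first still had an r of 0.997 without the 2 farthest arrays. Spearman's rho over these 15 ran from 0.486 to 1, and r without the 2 farthest arrays from -0.553 to 0.997. None of the 15 passed the limma test. Among the members themselves r ran from 0.427, between miR-199a-3p and miR-214-3p, to 0.857, between miR-199a-3p and miR-214-5p, which became -0.855 without the 2 farthest arrays. The 2 arms of miR-214 had an r of 0.576, with miR-214-5p 28th among all miRNAs by closeness to miR-214-3p.

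Other miRNAs of mesenchymal cells were read as a list of 25, of which 22 were tested. By the limma adjusted p, 0 rose and 0 fell, beside 0.334% higher and 0% lower of all 299 tested miRNAs. At so low a share, a count of 0 does not liken the list to the family. Of the 22, 6 were above and 16 below 0, with a median of -0.068. Of all tested miRNAs 134 were above and 165 below 0, and their median was -0.016. At an unadjusted p under 0.05, 0 of 22 were higher and 3 lower, beside 10.7% higher and 12% lower of all tested miRNAs. The smallest p-values belonged to miR-31-5p (7.55 ± 0.066 with IL-6 and 7.85 ± 0.048 in controls, SD; difference -0.30 ± 0.063 SE) and miR-143-3p, a driver of fat cell formation (9.09 ± 0.068 and 9.48 ± 0.11; -0.39 ± 0.084 SE), each with a limma adjusted p of 0.0845. Without control 4, 2 of this list passed as lower, beside 8 of all 299 tested miRNAs (2.68%), while 23 of those (7.69%) and none of the list passed as higher.

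In the lists nearest to the study's question no miRNA passed by the adjusted p, beside 0.334% of all tested miRNAs. At so low a share, such counts tell little of these lists. Their unadjusted counts stand beside the same 10.7% higher and 12% lower of all tested miRNAs. Of 22 anti-adipogenic miRNAs 15 were tested and none passed (limma; median -0.065; 1 higher and 3 lower unadjusted), with miR-31-5p as above and miR-709 at 0.43 ± 0.10 SE (adjusted p = 0.0845). Of 20 pro-adipogenic miRNAs 19 were tested and none passed (limma; median -0.13; 0 higher and 4 lower unadjusted), with miR-143-3p as above and miR-30a-5p at -0.20 ± 0.064 SE (adjusted p = 0.152). Of 17 miRNAs of IL-6, STAT3 and inflammation 15 were tested and none passed (limma; median 0.0039; 0 higher and 1 lower unadjusted). The smallest p-values there were those of miR-155-5p, an inflammatory miRNA (-0.35 ± 0.084 SE, adjusted p = 0.0859), and miR-21a-5p, a STAT3 target (-0.15 ± 0.067 SE, adjusted p = 0.244). Without control 4, 1 anti-adipogenic and 2 pro-adipogenic miRNAs passed as lower, beside the 8 of 299 given above, and none of these 3 lists had a miRNA that passed as higher. The lists share miRNAs with each other and with the mesenchymal list, so 1 miRNA can be counted in more than 1 list.

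The start of Dnm3os is shown because the chromosome 1 members arise from this transcript, with the E-box CANNTG, the core that Twist1 and many related factors bind, in capitals (chr1:162217373-162217672, GRCm38.p6, plus strand, RefSeq).
Dnm3os: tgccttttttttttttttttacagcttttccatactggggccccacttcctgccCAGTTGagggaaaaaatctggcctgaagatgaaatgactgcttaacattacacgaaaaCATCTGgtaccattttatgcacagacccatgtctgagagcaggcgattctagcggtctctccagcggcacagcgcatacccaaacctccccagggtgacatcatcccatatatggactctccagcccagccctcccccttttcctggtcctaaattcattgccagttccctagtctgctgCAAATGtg
This window of 300 bases held 3 matches to CANNTG, which reads the same on both strands. At least 1 match occurs in 72.3% of the 32851 windows of that length, and the share with 3 was not counted. The last of the 3 lies inside the transcript, which starts at chr1:162217623. The window held 0 matches to TTCNNNGAA, a STAT-type motif that also reads the same on both strands and occurs in 8.3% of windows. A match is a description and not a binding site, and its lack says only that these letters are not in this window.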

How the data were processed

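Per the labels' protocols, the RNA of each sample carried Cy3 and was read on an Agilent array of mouse miRNAs in 1 colour. The authors extracted spots with Agilent Feature Extraction 10.10.1.1, per the submitters' processing notes. The deposited intensity values used here are background-subtracted without surrogates. The deposited series table equalled the scanner's total probe signal (largest difference 0, linear, not centred; medians of the control columns 0.0937, 0.104, 0.0777 and 0.0781, of the IL-6 columns 0.0727 and 0.117) and served 1 alternative. Each array held 49880 mouse miRNA spots, 200 of them for the 12 member probes.

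Outlying and uneven spots were left out and the rest averaged per probe. Detection of a probe required 0.5 or more of its remaining spots to be well above background. Arrays were scaled by the 75th percentile over the 502 probes detected on all arrays, because most probes were not detected. Probes of a miRNA were averaged, floored at 6.25 and taken to log2. The 299 miRNAs detected on every array of a group were tested with limma 3.58.1 (R 4.3.3; lmFit, eBayes with trend, 2 groups, no covariates, Benjamini-Hochberg, threshold 0.05), after the procedure was tested on simulated data. The simulated noise was independent for each miRNA, with no shift common to an array or slide column, so it does not cover such shifts. Ratios used exact two-sided permutation tests. The members and lists were chosen with earlier results of these data known. Named are all members, miRNAs that share a member's seed, the 3 most alike to each member by Pearson's r, and in each list those past the threshold or, failing that, the 2 with the smallest p. Alternatives covered scaling, background, probes, floor, filter, blocks, moderation and each array left out.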

Additional observations from a re-analysis of the deposited data

Results flagged for a closer look

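The level of miR-199a-3p on control 4 was 11.35 (log2), far from the other 3 controls at 11.63 to 11.68. The gap made up 0.842 of the range of the controls, above Dixon's 95% critical value for 4 samples. Of the 9 sets of 4 controls looked at, this was the only one past that value, and chance flags about 1 in 20.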

How the results depend on the processing

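Under those of the 24 alternatives that gave a p-value, the members stayed on the same side of the threshold. Their directions, being near 0, turned in several of the 24. miR-199a-3p turned to 0.25 without scaling, 0.26 with spike-in scaling, 0.051 with the total gene signal and 0.015 with slide column as a block, and was -0.39 with quantile scaling. miR-199a-5p turned to 0.29 without scaling, 0.30 with spike-in scaling, 0.026 with normexp, 0.092 with the total gene signal, 0.012 with the brightest probe, 0.016 with outlying spots kept and 0.011 with slide column as a block. miR-214-5p turned to 0.27, 0.28, 0.072 and 0.039 without scaling, with spike-in scaling, the total gene signal and slide column as a block. Scaling on all mouse probes shifted the overall median by -0.11 and turned miR-199b-5p to -0.032 and miR-214-3p to -0.060. Leaving out each array in turn gave -0.17 to 0.081 for miR-199a-3p, -0.051 to 0.032 for miR-199a-5p, 0.030 to 0.11 for miR-199b-5p, -0.0073 to 0.11 for miR-214-3p and -0.067 to 0.0018 for miR-214-5p. The within-column values of the members and ratios that moved are in the text above: in column 3 -0.10 for miR-214-3p, in column 4 0.12 for miR-199a-5p, 0.20 for miR-199b-5p, 0.26 for miR-214-3p and 0.084 for miR-214-5p, and for the ratios -0.073, -0.096, 0.0044 and 0.078 in column 3 and 0.18, -0.14 and -0.21 in column 4. Leaving out each array gave -0.068 to 0.15 for the arms of miR-199a, -0.0091 to 0.16 for those of miR-214, -0.28 to 0.088 for miR-199a-3p minus miR-214-3p and -0.13 to 0.020 for miR-199a-5p minus miR-214-3p, the ends coming from the IL-6 arrays. The cause was not tested.

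The deviations of equal replicate numbers had a correlation of 0.0582 for number 1 and -0.338 for number 2. Those of the arrays of 1 slide column had 0.414 in column 3 and 0.511 in column 4. With only 2 IL-6 arrays these values are not independent, and they cannot decide which arrays belong together. With the replicate block the differences were -0.11 for miR-199a-3p, -0.020 for miR-199a-5p, 0.048 for miR-199b-5p, 0.021 for miR-214-3p and -0.086 for miR-214-5p, with no member past the threshold. Over all tested miRNAs limma called 1 higher and 0 lower (32 and 36 at an unadjusted p under 0.05). The higher count was 0 with the replicate block, slide column as a block, normexp, the series table or only the 264 miRNAs detected on all arrays. It was 2 with scaling over all probes, the brightest probe or the 336 miRNAs that could be fitted without a detection filter. It was 3 with the total gene signal, 7 with a floor of 1 or robust eBayes, 29 with spike-in scaling and 34 without scaling. Leaving out each array gave 1 to 23 higher and 0 to 8 lower, the high ends without control 4.

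The list medians moved with scaling: over all mouse probes to -0.18 (mesenchymal), -0.18 (anti-adipogenic), -0.24 (pro-adipogenic) and -0.11 (IL-6 and inflammation), without scaling to 0.23, 0.23, 0.17 and 0.30, with spike-in scaling to 0.23, 0.24, 0.17 and 0.30, and with the total gene signal to 0.029, 0.032, -0.030 and 0.10. Quantile scaling gave -0.12 for the anti-adipogenic and -0.060 for the inflammation list, which was -0.063 with normexp and -0.065 with the replicate block. Within column 4 the mesenchymal median was 0.017 and the anti-adipogenic -0.0081. Without single arrays the lower counts of the mesenchymal, anti-adipogenic and pro-adipogenic lists were 0 to 2, 0 to 1 and 0 to 2, and the inflammation median ranged from -0.10 to 0.023. miR-214-5p was limited by its signal over background, with 3 of its 4 probes undetected.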
